A study of Homo sapiens with 12 samples.

Results

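The transcripts described here encode 10 secreted or membrane-bound cytokines, LTB, TNF, TNFSF10, IL6, LIF, IL11, IL1A, IL1B, IL32 and CSF1, among 38021 gene names in the count table. Apart from CSF1, a macrophage growth factor, they belong to the interleukin and tumor necrosis factor (TNF) families. They were measured in clear cell renal carcinoma cells with and without depletion of the clock transcription factor BMAL1. The set was selected on the level of LTB, which was much lower with shBMAL1 than with shControl in 786O cells, so the changes in 786O cells are given as a description, without a test. All 10 genes are in the table, and 9 of them passed the filter on low counts. IL1A did not, with at most 5 counts in any library.

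786O is a renal carcinoma line that lacks functional VHL, the ubiquitin ligase subunit that marks HIF alpha subunits for destruction, and WT8 is a 786O derivative that expresses wildtype VHL. Each line was infected with a lentivirus carrying either a scramble shRNA (shControl) or an shRNA against BMAL1 (shBMAL1) and kept under puromycin. The 4 groups, 786O shControl, 786O shBMAL1, WT8 shControl and WT8 shBMAL1, hold 3 mRNA sequencing libraries each, labelled as biological replicates. All 12 libraries therefore come from cells that carry an shRNA vector. The study's methods name more than 1 shRNA against BMAL1 and do not say which was used here. WT8 was provided by another laboratory. The methods name 786O cells from ATCC and a CRISPR-control 786O line from that laboratory, without saying which was used here. VHL and any other difference between the lines therefore cannot be told apart.

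Cytokines of the TNF family are trimers that act at the cell surface or after shedding. LTB, lymphotoxin beta, joins lymphotoxin alpha in a membrane complex that engages LTBR and the noncanonical NF-kB pathway, TNF acts through TNFRSF1A and TNFRSF1B, and TNFSF10 (TRAIL) signals to cell death through TNFRSF10A and TNFRSF10B. IL6, IL11 and LIF each bind a receptor of their own and share the signal transducer IL6ST (gp130), which activates JAK kinases and STAT3. IL1A and IL1B act through IL1R1 with IL1RAP, IL1B after cleavage by caspase-1, CSF1 drives macrophage growth and survival through CSF1R, and IL32 is an inflammatory cytokine of lymphoid and epithelial cells whose receptor is not settled. Several of these genes are classical targets of NF-kB, AP-1 or interferon signalling.

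LTB and TNF lie side by side in the major histocompatibility complex on chromosome 6. In the GENCODE annotation on GRCh37, TNF spans chr6:31543342-31546113 on the plus strand and LTB spans chr6:31548302-31550299 on the minus strand, with 2188 bases between them. IL1A and IL1B are neighbours on chromosome 2, 45257 bases apart, and the other members lie on chromosomes 3 (TNFSF10), 7 (IL6), 22 (LIF), 19 (IL11), 16 (IL32) and 1 (CSF1). The annotation places IL6-AS1 and STEAP1B over IL6, and LIF-AS1 and LIF-AS2 over LIF, each on the opposite strand. It also places the pseudogene TBPL1P1 over TNFSF10 and the long noncoding RNA ENSG00000262370 over IL32 on the opposite strand, and the small RNA gene RNU1-125P over IL32 on the same strand. The libraries were stranded, but whether the counting used strand is not given in the sources used here, so reads of these overlapping genes may be included, and for RNU1-125P strand could not separate them.

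RefSeq promoter sequences (GRCh38.p14) were at hand for 8 of the 10 members, all but LIF and CSF1. In the 250 bases before the start site, a match to the kappaB consensus, searched on both strands, was found in LTB (on the reverse strand), IL6 and IL32, at 86, 73 and 99 bases before the start. Such a match stands in 6.88% of the 35116 promoter windows of this length. The interferon response motif, GAAA followed after any 2 bases by GAAA, was found in TNFSF10, 187 bases before the start on the reverse strand, against 3.02% of all windows. These 4 windows are shown because they hold a kappaB or interferon response match. Of their genes, LTB, IL6 and TNFSF10 were lower and IL32 was higher with shBMAL1 in WT8 cells, and TNF, IL11 and IL1B, whose windows held neither match, were lower there too. They are written from 5′ to 3′ along the gene, with the motif match in capitals.
LTB (chr6:31582426-31582675, minus strand): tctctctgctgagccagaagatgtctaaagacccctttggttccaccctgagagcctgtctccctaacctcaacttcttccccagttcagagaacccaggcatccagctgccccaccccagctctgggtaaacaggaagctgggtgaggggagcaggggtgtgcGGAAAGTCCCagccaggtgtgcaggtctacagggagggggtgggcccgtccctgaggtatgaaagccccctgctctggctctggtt
IL6 (chr7:22726950-22727199, plus strand): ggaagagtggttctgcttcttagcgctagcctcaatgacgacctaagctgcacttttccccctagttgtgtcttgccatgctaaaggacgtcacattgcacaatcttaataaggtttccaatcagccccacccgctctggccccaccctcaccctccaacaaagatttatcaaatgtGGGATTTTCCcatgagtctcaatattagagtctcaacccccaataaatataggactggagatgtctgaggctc
IL32 (chr16:3065153-3065402, plus strand): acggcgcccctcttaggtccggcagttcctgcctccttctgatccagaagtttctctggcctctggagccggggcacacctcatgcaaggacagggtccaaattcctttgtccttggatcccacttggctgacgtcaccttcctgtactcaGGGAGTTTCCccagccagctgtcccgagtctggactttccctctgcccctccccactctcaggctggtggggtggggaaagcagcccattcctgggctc
TNFSF10 (chr3:172523431-172523680, minus strand): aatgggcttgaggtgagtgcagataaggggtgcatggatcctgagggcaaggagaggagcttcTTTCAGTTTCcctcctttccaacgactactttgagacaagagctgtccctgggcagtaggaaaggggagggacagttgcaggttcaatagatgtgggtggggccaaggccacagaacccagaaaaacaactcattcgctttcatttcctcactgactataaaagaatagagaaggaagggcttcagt
The E-box CACGTG, the sequence that BMAL1 dimers prefer, occurred in none of the 8 windows and in 6.34% of all windows. The hypoxia response core, ACGTG or GCGTG, which also lies inside that E-box, was in IL11 and IL1A and in 43.2% of all windows. The AP-1 motif TGANTCA was in IL11, 96 bases before the start, and in IL1A, 12 bases before the start, against 6.57% of all windows. TNF and IL1B held none of the motifs in this window. A match is a description of the sequence, and binding was not measured in these files.

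In 786O the shControl libraries held 378 to 464 counts of BMAL1, listed as ARNTL, and the shBMAL1 libraries 128 to 142; in WT8 the ranges were 309 to 355 and 56 to 72. VHL counts were 602 to 740 in the 786O libraries and 23607 to 37514 in the WT8 libraries, and were lower in WT8 shBMAL1 than in WT8 shControl (log2 change -0.60). ARNTL was thus lower in every shBMAL1 library than in the shControl libraries of its line. Library totals were 33182005 to 36477484 counts. All 7 renal epithelial markers, and 4 of 9 blood cell markers, exceeded 3 counts in some library of every group. The blood cell markers above that level were CD68, ITGAM, CD14 and CSF1R. Summed over the list, they came to 45.6 to 48.5 CPM (counts scaled to library size) with shControl and 38.3 to 43.3 with shBMAL1 in 786O, and to 30.1 to 36.7 and 19 to 23.3 in WT8, most of it CD68. The defining leukocyte markers were at or near 0, with PTPRC at 1 count in a single library and CD3E at 0 in all 12. The mitochondrially encoded share of counts was 3.38% to 4.25% in 786O and 4.58% to 5.64% in WT8 libraries. In bulk RNA, fewer expressing cells and less RNA per cell cannot be told apart.

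Compared per kilobase of exon, the members covered a wide range of levels. In 786O shControl cells TNFSF10 (146 CPM per kb) and IL32 (118) were highest, followed by CSF1 (34.4), LIF (14.7), IL6 (12.1), IL11 (4.37), LTB (3.4) and TNF (1.53), with IL1B (0.016) and IL1A (0.00967) near 0. In WT8 shControl cells IL32 was first at 22.2 CPM per kb, LIF (10.9), CSF1 (9.26), IL6 (8.38) and TNF (8.16) followed, and TNFSF10 took the sixth place at 5 and LTB the ninth at 0.254. The order at the top of WT8 shBMAL1 was IL32 at 87.6 CPM per kb, CSF1 at 8.55, LIF at 5.92 and TNF at 3.38. Among members and groups with a mean of at least 50 counts, the coefficient of variation over 3 libraries ranged from 0.718% to 21.5%, with a median of 5.53%.

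**Figure D1:**
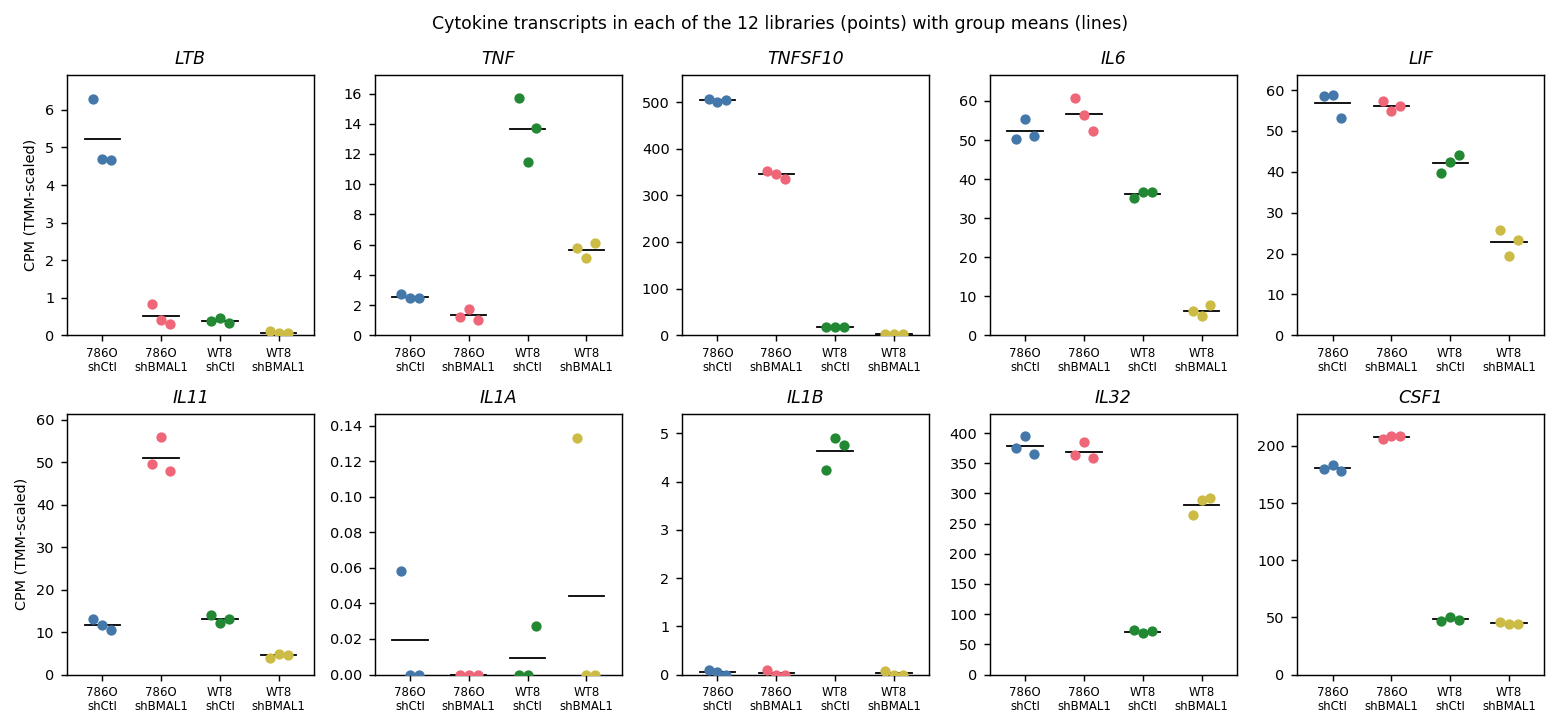
Level of each cytokine transcript in CPM after TMM scaling (vertical axes, linear from 0, a separate scale for each gene) in the 12 libraries of the 4 groups; points are libraries and lines are group means. LTB is highest in 786O shControl (mean 5.22 CPM), IL11 in 786O shBMAL1 (51.1 CPM) and TNF and IL1B in WT8 shControl (13.7 and 4.63 CPM), and IL32 is lowest in WT8 shControl (71.2 CPM).

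LTB, the gene on which the set was selected, was counted 216, 164 and 164 times in the 786O shControl libraries and 29, 14 and 10 times in 786O shBMAL1. It was counted 14, 16 and 12 times in WT8 shControl and 4, 2 and 2 times in WT8 shBMAL1. The 3 libraries of 786O shControl were thus far above all others, 786O shBMAL1 and WT8 shControl overlapped, and WT8 shBMAL1 was below every other library. The difference in 786O was -3.35 (SE 0.28) on the log2 scale, 10.2-fold, and that of WT8 shControl from 786O shControl was -3.73 (SE 0.29), both given without a test since the 786O libraries selected the gene. In WT8 cells, whose libraries took no part in the selection, LTB fell by 2.39 (SE 0.54) on the log2 scale (edgeR quasi-likelihood F test, adjusted p = 0.000207). The WT8 libraries held 42 counts against 8, a ratio of 5.46 with an exact 95% interval of 2.53 to 13.5 that covers counting error only. The shControl level from which it fell in WT8 was 13.3-fold below that of 786O.

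TNF, the neighbour of LTB, was distributed in another way. Its counts were 93, 87 and 87 in 786O shControl, 43, 60 and 34 in 786O shBMAL1, 578, 398 and 504 in WT8 shControl, and 218, 190 and 229 in WT8 shBMAL1. No 2 groups overlapped, and both WT8 groups were above both 786O groups, whereas LTB was highest in 786O shControl. With shBMAL1 the difference was -0.96 (SE 0.19) in 786O, and in WT8 TNF fell by 1.27 (SE 0.13, adjusted p = 2.05e-10), 2.41-fold. WT8 shControl was 5.34-fold above 786O shControl (log2 2.42, SE 0.15, adjusted p = 6.61e-17). The changes in the 2 lines differed by -0.31 (SE 0.24, adjusted p = 0.295), which did not pass the threshold of 0.1. The other genes next to LTB and TNF were barely detected. LTA, which encodes the partner of LTB in the lymphotoxin complex, had 0 to 6 counts in any library, LST1 had 0 to 6 and NCR3, a receptor of natural killer cells, 0 to 2.

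TNFSF10, the death ligand TRAIL, was much higher in 786O than in WT8. It was counted 17376, 17482 and 17744 times in 786O shControl, 12298, 11972 and 11706 times in 786O shBMAL1, 615, 614 and 624 times in WT8 shControl, and 62, 62 and 78 times in WT8 shBMAL1. The 4 groups were fully separated, in that order. The difference with shBMAL1 was -0.55 (SE 0.04) in 786O, 1.46-fold, and in WT8 TNFSF10 fell by 3.25 (SE 0.08, adjusted p = 6.43e-28), 9.53-fold. WT8 shControl was 29.4-fold below 786O shControl (log2 -4.88, SE 0.05, adjusted p = 7.75e-39). The change with shBMAL1 was lower in WT8 than in 786O by -2.70 (SE 0.10, adjusted p = 4.55e-23).

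The 3 cytokines that signal through IL6ST behaved differently from each other in 786O and alike in direction in WT8. IL6 was counted 1722, 1942 and 1789 times in 786O shControl, 2119, 1962 and 1823 times in 786O shBMAL1, 1291, 1264 and 1354 times in WT8 shControl, and 233, 189 and 290 times in WT8 shBMAL1. The 2 786O groups overlapped, WT8 shControl was below them and WT8 shBMAL1 was far below the rest. The difference in 786O was 0.12 (SE 0.08) on the log2 scale. In WT8 IL6 fell by 2.51 (SE 0.10, adjusted p = 1.73e-20), 5.71-fold. LIF, leukemia inhibitory factor, had 2004, 2058 and 1866 counts in 786O shControl, 1996, 1909 and 1953 in 786O shBMAL1, 1457, 1459 and 1627 in WT8 shControl, and 969, 730 and 873 in WT8 shBMAL1. It had the same group order as IL6 below the overlapping 786O groups, with a smaller step. The difference was -0.02 (SE 0.07) in 786O, and in WT8 LIF fell by 0.88 (SE 0.07, adjusted p = 9.15e-13).

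IL11, an IL6ST cytokine linked to stromal and epithelial remodelling, was higher with shBMAL1 in 786O and lower in WT8. Its counts were 450, 405 and 368 in 786O shControl and 1725, 1941 and 1670 in 786O shBMAL1, a difference of 2.12 (SE 0.09), 4.36-fold. They were 515, 420 and 479 in WT8 shControl and 147, 184 and 176 in WT8 shBMAL1, where IL11 fell by 1.53 (SE 0.11, adjusted p = 3.49e-15), 2.9-fold. The shControl groups of the lines overlapped and did not differ past the threshold (log2 0.16, SE 0.09, adjusted p = 0.13), although this comparison passed it with DESeq2 (adjusted p = 0.0976) and with RLE size factors (0.087). Without 786O shControl replicate 1 its adjusted p was 0.0364, and without WT8 shControl replicate 2 it was 0.0757. Taken as WT8 minus 786O, the difference between the changes was -3.66 (SE 0.14, adjusted p = 1.69e-22) for IL11, -2.63 (SE 0.12, adjusted p = 1.01e-17) for IL6 and -0.86 (SE 0.10, adjusted p = 6.08e-09) for LIF. IL6 and LIF were also lower in WT8 shControl than in 786O shControl, with log2 changes of -0.53 (SE 0.08, adjusted p = 6.54e-07) and -0.43 (SE 0.07, adjusted p = 1.23e-06).

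IL1B was found almost only in WT8 shControl. It was counted 156, 169 and 175 times there, against 3, 2 and 0 times in 786O shControl, 3, 0 and 0 times in 786O shBMAL1 and 3, 0 and 0 times in WT8 shBMAL1. All 3 WT8 shControl libraries were above every other library, and the remaining groups overlapped at or below 3 counts, so no change in 786O can be given. IL1B passed the low-count filter only through WT8 shControl, so its differences from that group are given as a description, without a test. In WT8 IL1B was 173-fold lower with shBMAL1 by the ratio of summed counts, with an exact 95% interval of 59 to 843. All 3 counts of the shBMAL1 group came from replicate 1. Without that library, against 2 libraries at 0, the fitted log2 change went from -7.26 to -10.36. The size of the fall is therefore not well set. WT8 shControl exceeded 786O shControl by a ratio of 96.6 (interval 41.1 to 299). Without 786O shControl replicate 1 the fitted log2 difference went from 6.5 to 7.17. The sister gene IL1A had 2 counts in 1 of the 786O shControl libraries, none in 786O shBMAL1, 1 count in a WT8 shControl library and 5 counts in a WT8 shBMAL1 library. It was not detectable as different between groups at this depth.

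IL32 was the only member tested that was higher with shBMAL1 in WT8. It was counted 12899, 13810 and 12826 times in 786O shControl, 12662, 13407 and 12472 times in 786O shBMAL1, 2690, 2367 and 2640 times in WT8 shControl, and 9924, 10796 and 10892 times in WT8 shBMAL1. The 786O groups overlapped (difference -0.04, SE 0.05), WT8 shControl was lowest, and WT8 shBMAL1 lay between them. In WT8 IL32 rose by 1.98 (SE 0.05, adjusted p = 1.58e-28), 3.95-fold, from a level that in WT8 shControl was 5.32-fold below 786O shControl (log2 -2.41, SE 0.05, adjusted p = 2.31e-31). The change with shBMAL1 in WT8 exceeded that in 786O by 2.02 (SE 0.07, adjusted p = 2.93e-24).

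CSF1, the macrophage growth factor, differed mainly between the lines. Its counts were 6186, 6402 and 6247 in 786O shControl, 7170, 7265 and 7281 in 786O shBMAL1, 1735, 1734 and 1765 in WT8 shControl, and 1744, 1638 and 1657 in WT8 shBMAL1. In CPM the 4 groups did not overlap, though the WT8 groups were close at 47.2 to 50.3 CPM and 43.8 to 46.4 CPM. The difference in 786O was 0.21 (SE 0.04). In WT8 it was -0.11 (SE 0.05, adjusted p = 0.0393), a call lost without the low-count filter (adjusted p = 0.13), with only the WT8 libraries in the fit (0.195), and without WT8 shControl replicate 2 (0.151), WT8 shBMAL1 replicate 2 (0.168) or WT8 shBMAL1 replicate 3 (0.113). WT8 shControl was below 786O shControl (log2 change -1.90, SE 0.05, adjusted p = 7.58e-29). The 2 changes with shBMAL1 differed by -0.32 (SE 0.06, adjusted p = 9.01e-05).

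**Figure D2:**
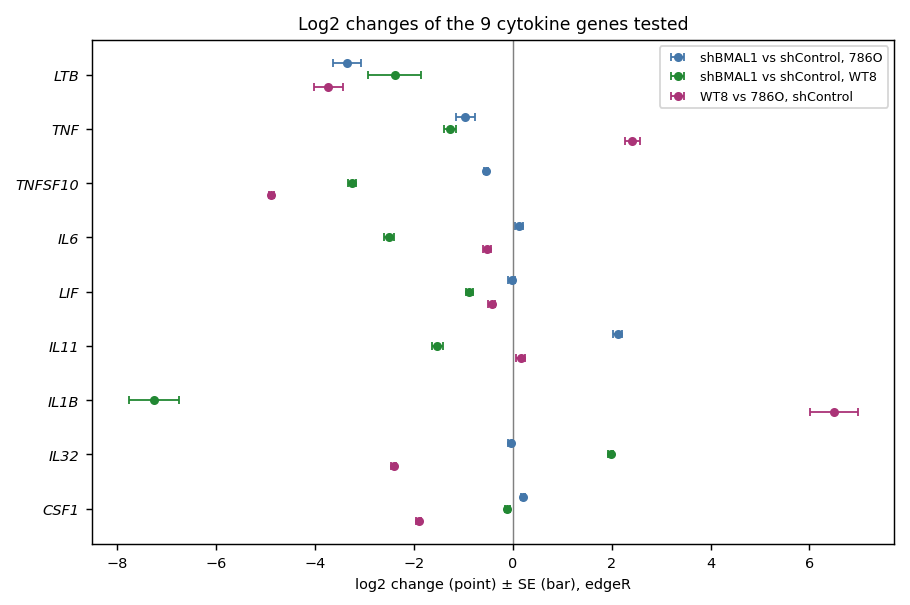
Log2 change (points) with its standard error (bars) for the 9 cytokine genes tested, with shBMAL1 against shControl in 786O and in WT8 and for WT8 against 786O in shControl cells. The 786O value of IL1B is left out because both groups held at most 3 counts, and its other 2 values are fitted against such groups. In WT8 only IL32 lies to the right of 0 (1.98), and in 786O IL11 lies farthest right (2.12) and LTB farthest left (-3.35).

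Counted together and read against all 16838 genes tested, the members stood as follows. In WT8, shBMAL1 changed 9 of 9 members tested, 1 higher and 8 lower, where 69.8% of all genes were called, 32.9% higher and 36.9% lower. The median log2 change was -1.53 for the members and -0.04 for all genes. Between WT8 shControl and 786O shControl, 8 of 9 were called, 2 higher (TNF and IL1B) and 6 lower, where 79.5% of all genes were called, 39.3% higher and 40.2% lower, with medians of -0.53 and 0. This total includes LTB, whose libraries in 786O selected the set. The change with shBMAL1 differed between the lines for 7 of 9, more positive in WT8 for 1 (IL32) and more negative for 6, where 56% of all genes were called, 27.4% positive and 28.5% negative, with medians of -0.86 and -0.03. The 786O changes that led to the choice of the set are part of this comparison. In 786O itself 5 of 9 passed the same threshold, 2 higher (IL11 and CSF1) and 3 lower (LTB, TNF and TNFSF10), where 48.9% of all genes were called, 24.5% higher and 24.4% lower. This count is a description only. The comparisons within 786O and between the lines share the 786O shControl libraries. IL1B, which passed the low-count filter only through WT8 shControl, is among the 9 members tested in each of these counts.

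The genes whose pattern over the 12 libraries was most like that of LTB were found by the root mean square difference of log2 CPM, each gene centred on its own mean, among 13817 genes. They were SLC15A3, a lysosomal peptide transporter (0.561), MX1, an interferon-induced GTPase (0.703), ANO9, a member of the anoctamin family (0.711), SIK1, a salt-inducible kinase (0.758), and OLFML2B, an olfactomedin-like protein (0.788). Of these, SLC15A3 was counted 128 to 154 times with shControl and 15 to 28 times with shBMAL1 in 786O, and 8 to 24 and 1 to 3 times in WT8. MX1 was counted 205 to 229, 50 to 75, 21 to 30 and 7 to 13 times in the same order of groups. Each of the 5 was highest in 786O shControl and lowest in WT8 shBMAL1, as LTB was. Since they were picked for likeness, this is a description. By this measure IL6 (difference 1.38, place 325) and CSF1 (1.48, place 539) had the smallest differences from LTB among the members. TNF (2.69, place 13196) and IL1B (3.34, place 13599) were among the farthest. The measure depends on the size of changes, and IL6 and CSF1 did not fall with shBMAL1 in 786O (log2 0.12 and 0.21). TNFSF10 (2.06, place 8244) was lower with shBMAL1 in both lines and had the same order of group means as LTB.

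**Figure D3:**
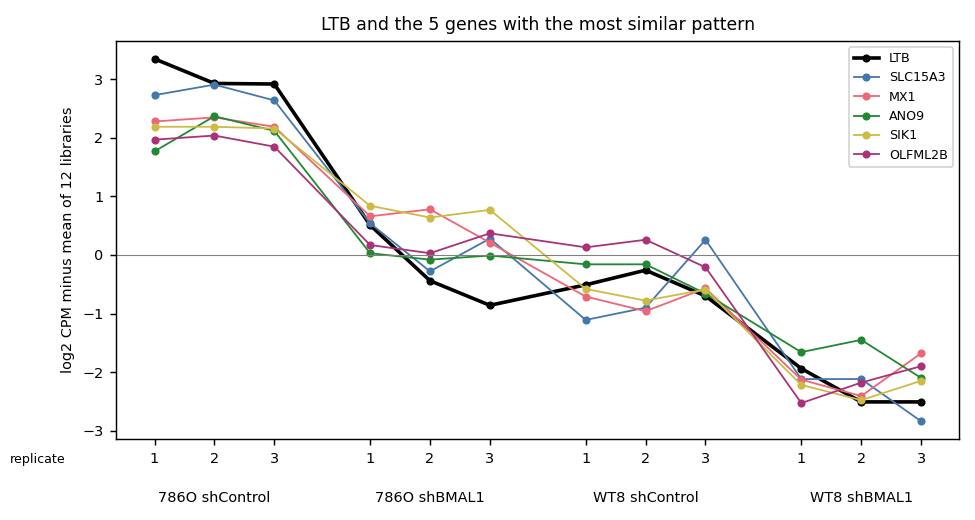
Log2 CPM minus the mean of the 12 libraries (vertical axis) in each library (horizontal axis, replicates 1 to 3 of the 4 groups) for LTB (thick black line) and the 5 genes with the smallest root mean square difference from it. All 6 lines are highest in 786O shControl, where LTB lies at 2.92 to 3.35, and lowest in WT8 shBMAL1, where LTB lies at -2.51 to -1.94.

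Most of the receptor genes for these cytokines were higher with shBMAL1 in 786O and lower in WT8. Of 17 receptor, decoy and antagonist genes, 14 were tested, and TNFRSF1B, TNFRSF10C and IL1RN were not, with at most 7 counts in any library. With shBMAL1 in 786O 12 were higher and 1 was lower (median log2 change 0.54), in WT8 none was higher and 11 were lower (median -0.44), and all 14 had a change more negative in WT8 than in 786O (median -0.89), LIFR with an adjusted p of 0.0685 that rose to 0.131 without the low-count filter. The LIFR call was also lost with single libraries left out (adjusted p up to 0.247, without WT8 shBMAL1 replicate 2). In WT8 shControl 11 were above and 3 below 786O shControl (median 0.68). Of all genes, 24.5% were higher and 24.4% lower with shBMAL1 in 786O, and 32.9% and 36.9% in WT8. Between the shControl groups 39.3% were higher and 40.2% lower in WT8. For the difference between the changes 27.4% were positive and 28.5% negative. The 11 of 14 called in WT8 and the 14 of 14 called between the lines stand against 69.8% and 79.5% of all genes.

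For the TNF family, LTBR, the receptor of the LTB complex, was counted 8437 to 8597 times in 786O shControl and 10138 to 10629 times in 786O shBMAL1, and rose by 0.29 (adjusted p = 4.72e-06). It was counted 13810 to 16477 times in WT8 shControl and 11695 to 13155 times in WT8 shBMAL1, and fell by 0.38 (adjusted p = 5.4e-09). In 786O shBMAL1 LTB was lower and its receptor higher, and in WT8 shBMAL1 both were lower. TNFRSF1A, the main TNF receptor, rose by 0.24 in 786O and fell by 1.02 in WT8 (adjusted p = 1.26e-05 and 1.52e-21). The TRAIL receptor TNFRSF10B rose by 0.14 in 786O and fell by 0.47 in WT8, and the decoy TNFRSF10D, which lacks a working death domain, rose by 0.99 and fell by 1.20. TNFRSF10A, the other death receptor for TRAIL, was lower with shBMAL1 in both lines, with log2 changes of -0.93 in 786O and -1.67 in WT8. It was the 1 receptor that fell in 786O. TNFRSF11B, osteoprotegerin, a soluble decoy that also binds TRAIL, rose by 0.84 in 786O and fell by 0.63 in WT8.

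For the interleukins, IL6R was counted 51 to 76 times with shControl and 116 to 154 times with shBMAL1 in 786O, and 629 to 709 and 490 to 558 times in WT8. It rose by 1.07 with shBMAL1 in 786O and fell by 0.40 in WT8, and WT8 shControl was 10.4-fold above 786O shControl (adjusted p = 1.96e-22). IL11RA was counted 25 to 42, 22 to 37, 243 to 306 and 34 to 45 times in the same groups. In WT8 the depletion lowered it 6.9-fold (log2 -2.79, SE 0.20, adjusted p = 2.29e-14), and its difference in 786O was -0.33 (adjusted p = 0.342), so that IL11 and IL11RA were both lower in WT8 shBMAL1. The shared subunit IL6ST rose by 0.36 in 786O and fell by 0.14 in WT8. LIFR rose by 0.34 in 786O and its difference in WT8 was 0.11 (adjusted p = 0.151). That difference in WT8 passed the threshold with only the WT8 libraries in the fit (0.0748). It also passed without WT8 shControl replicate 2 (0.041) or WT8 shBMAL1 replicate 2 (0.0437). IL1R1, IL1R2 (a decoy for IL1) and IL1RAP rose by 0.75, 1.03 and 0.73 in 786O. In WT8 their differences were -0.13 (adjusted p = 0.0945), 0.12 (adjusted p = 0.358) and -0.01 (adjusted p = 0.902). The first of these lost its call without the low-count filter (adjusted p = 0.188) and with only the WT8 libraries in the fit (0.174). Leaving out single libraries of either line also lost it (up to 0.368, without WT8 shControl replicate 2).

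CSF1R, the receptor of CSF1 and also a marker of macrophages, was counted 111, 144 and 129 times in 786O shControl, 236, 219 and 212 times in 786O shBMAL1, 35, 31 and 30 times in WT8 shControl, and 5, 2 and 5 times in WT8 shBMAL1. The 4 groups did not overlap. It rose by 0.80 in 786O (SE 0.16, adjusted p = 0.000135) and fell by 3.02 in WT8 (SE 0.36, adjusted p = 3.81e-09). The sum of blood cell markers, most of it CD68, was lower in WT8 than in 786O and lower with shBMAL1 in each line, as given above. Of the 4 such markers tested, CD14 and ITGAM were higher in WT8 shControl than in 786O shControl (log2 1.78 and 1.75), and CD68 and CSF1R were lower. With shBMAL1 in 786O CD14 and CSF1R rose (log2 1.28 and 0.80) and ITGAM and CD68 fell, and in WT8 all 4 fell. Their part in the cytokine values was not tested.

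**Figure D4:**
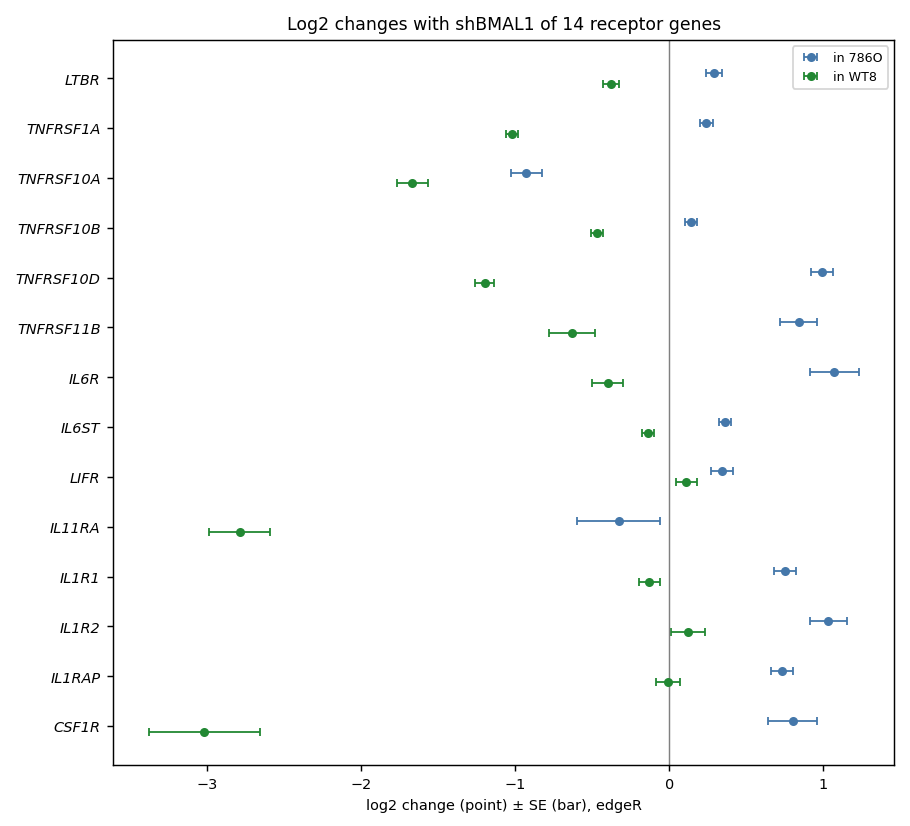
Log2 change with shBMAL1 (points) and its standard error (bars) for the 14 receptor and decoy genes tested, in 786O and in WT8. In 786O 12 genes lie above 0 and passed the threshold, with TNFRSF10A at -0.93 on the other side, and in WT8 the lowest are CSF1R (-3.02) and IL11RA (-2.79). Of all genes, 24.5% were called higher in 786O.

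Of 32 other cytokine ligands 14 were tested. In 786O shBMAL1 raised 2 and lowered 5 (7 of 14 called, where 48.9% of all genes were), and in WT8 it raised 3 and lowered 6 (9 of 14 called, where 69.8% of all genes were), shares near those of all genes. The median log2 changes were -0.14 and 0.12. These counts and medians include genes near 0 in 1 of the lines. IL16 and IL24, lower in WT8, passed the low-count filter only through WT8 shControl and held at most 1 count in any 786O library. TNFSF13B, also lower in WT8, had at most 15 counts in any library. It was called higher in 786O on 0, 2 and 1 counts with shControl and 4, 0 and 12 with shBMAL1, which overlap. CLCF1, an IL6-family ligand, rose in both lines, by 0.43 and 0.37, and TNFSF13 (APRIL), a B cell survival factor, fell in both, with log2 changes of -0.79 and -0.84. IL18, which like IL1B is activated by caspase-1, fell in 786O (log2 -0.95, adjusted p = 3.9e-05) and less in WT8 (log2 -0.25, adjusted p = 0.0454). The difference between these changes was 0.70 (adjusted p = 0.00553), and IL18 was 6.03-fold higher in WT8 shControl than in 786O shControl. IL15, a growth factor of T and NK cells, rose by 0.43 in WT8 (adjusted p = 0.000121). The TNF-family ligand CD70 fell in both lines (log2 -0.70 in 786O and -0.46 in WT8). CSF2, which encodes the growth factor GM-CSF, was 11.2-fold lower in WT8 shControl than in 786O shControl. TNFSF12 (TWEAK) had 119, 136 and 124 counts in 786O shControl and 3, 0 and 0 in WT8 shControl, and it overlaps the read-through gene TNFSF12-TNFSF13.

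Of 12 genes for cytokine shedding and inflammasome processing, 11 were tested. In 786O none rose and 6 fell with shBMAL1, where 48.9% of all genes were called, and in WT8 1 rose and 5 fell, where 69.8% were called (medians -0.17 and -0.23). Of the 11, 10 were lower in WT8 shControl than in 786O shControl, where 40.2% of all genes were lower. NLRP3, the inflammasome sensor upstream of IL1B cleavage, was counted 271, 315 and 292 times in WT8 shControl and 50, 60 and 54 times in WT8 shBMAL1. It fell there 5.57-fold (log2 -2.48, SE 0.14, adjusted p = 1.99e-17), in the same libraries in which IL1B was lower, and its change in 786O was -0.39 (adjusted p = 0.00517). ADAM17, the protease that sheds TNF, fell in WT8 (log2 -0.50). The inflammasome sensor NLRP1 rose in WT8 (log2 0.75), and the inflammatory caspase CASP4 fell in both lines (log2 -0.31 in 786O and -0.33 in WT8). CASP4 and NLRP1 were 4.28-fold and 3.61-fold lower in WT8 shControl than in 786O shControl. CASP8, the caspase engaged by TRAIL receptors, had a change that was 0.21 more positive in WT8 than in 786O (adjusted p = 0.0127).

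All 18 NF-kB pathway and target genes were tested. In 786O shBMAL1 raised 4 and lowered 9 of them, against 24.5% of all genes higher and 24.4% lower, and in WT8 it raised 2 and lowered 11, against 32.9% higher and 36.9% lower (medians -0.15 and -0.49). The 13 of 18 called in WT8 are near the 69.8% of all genes called there. In 786O the coactivator BCL3 and the inhibitor-like protein NFKBIZ rose (log2 0.81 and 0.57), and TNFAIP2 and the apoptosis inhibitor BIRC3 fell (log2 -0.70 each). TNFAIP2 and BIRC3 also fell in WT8 (log2 -0.68 and -0.55). In WT8 the feedback inhibitor TNFAIP3 (A20) and the adhesion molecule ICAM1 fell most (log2 -1.26 and -1.24), and the signalling genes TRAF2 and MAP3K14 rose by 0.24 and 0.19. TNFAIP3 also fell in 786O (log2 -0.56), and TRAF2 also rose there (log2 0.15). NFKBIZ, which is needed for IL6 induction in several cell types, was counted 1363 to 1602 times with shControl and 2122 to 2343 times with shBMAL1 in 786O, and 3999 to 4286 and 1752 to 1890 times in WT8, so its change differed between the lines by -1.79 (SE 0.08, adjusted p = 2.95e-20). That of ICAM1 differed by -1.14, and those of NFKB1 and MAP3K14 by 0.29 and 0.25. Between the shControl groups NFKBIZ and RELA were higher in WT8 (log2 1.39 and 0.32), and TRAF1 and BIRC2 were lower (log2 -1.48 and -0.93).

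Of 15 genes of IL6-family signalling, shBMAL1 raised 5 and lowered 4 in 786O, where 48.9% of all genes were called, and raised 6 and lowered 7 in WT8, where 69.8% were called (medians 0.07 and -0.13). SOCS3, the feedback inhibitor of IL6ST, and SOCS1 rose in 786O (log2 0.80 and 1.02), where IL11 was higher, and the kinase gene JAK1 fell there (log2 -0.29). Also in 786O, JUNB rose (log2 0.30), CEBPB fell (log2 -0.21) and PIM1 did not pass the threshold (log2 0.04). Whether genes of this list followed the cytokines in either line was not tested. In WT8, where IL6, LIF and IL11 all fell, CEBPB, a transcription factor first known as an activator of IL6, and JUNB fell (log2 -1.14 and -0.98). The kinase gene PIM1 and the phosphatase gene PTPN11 rose (log2 1.36 and 0.72). SOCS3 and CEBPB were higher in WT8 shControl than in 786O shControl (log2 1.53 and 1.41), and PIM1 and SOCS2 were lower (log2 -3.40 and -1.19). The change with shBMAL1 was more negative in WT8 than in 786O for SOCS1 (-1.73) and JUNB (-1.28), and more positive for PIM1 (1.32) and PTPN11 (0.64).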

How the data were processed

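RNA from 786O and WT8 cells was sequenced as stranded mRNA libraries, 3 in each of 4 groups. The authors deposited estimated counts per gene in a table of 38021 gene names. Per the study's methods reads were aligned to GRCh37 with SeqMan NGen and counted in ArrayStar, whereas the submitters' processing notes name STAR, DESeq2 and hg38 without roles; the annotation and the handling of strand and of multiply mapped reads are not given in the sources used here. In the deposited counts 47% of values held a stand-in of 0.028, which was set to 0, 5.67% of the others were not whole and were rounded, and lines of the same name were summed. Counts of 2 (14754 values) outnumbered counts of 1 (11117), so mates may have been counted separately and counting intervals may be too narrow.

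All 12 libraries (33182005 to 36477484 counts) entered 1 fit in edgeR 4.0.16 (R 4.3.3), with TMM scaling, filterByExpr, the robust quasi-likelihood test and Benjamini-Hochberg adjustment over 16838 genes. A gene was called at an adjusted p under 0.1, the rate the study used. CPM per kb used the union of exons in GENCODE 44 on GRCh37. A fitted fold against a group with 3 or fewer counts depends on the prior count, so ratios of summed counts with exact 95% intervals are given there. Beyond the label, no source states that the replicates were separate cultures, and p-values measure only the spread between these libraries.

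The members and lists were chosen with earlier results of these data known. Named were the members, their receptors, the neighbours LTA, NCR3 and LST1, ARNTL and VHL, the 5 genes most like LTB among those with at least 50 counts on average in their highest group, and, from each other list and comparison, up to 2 called rises and 2 called falls of largest size with a mean of at least 50 counts; 1 gene that met this rule is not reported here. CASP1, PYCARD, TNFSF13B, IL16 and IL24 were named as well, for their low counts. Alternatives were DESeq2 1.42.0, RLE size factors, no filter, only the libraries compared, a replicate block, a fold over 1.5, and each library left out.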

Additional observations from a re-analysis of the deposited data

Results flagged for a closer look

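The change with shBMAL1 differed between WT8 and 786O, by the interaction term of the edgeR fit, for 7 of the 9 cytokine genes tested. Of all 16838 genes tested, 56% were called in this comparison. Given as the log2 change in WT8 minus that in 786O, the difference was -3.66 for IL11, -2.70 for TNFSF10, -2.63 for IL6, -0.86 for LIF, -0.32 for CSF1 and 2.02 for IL32. For IL1B it was -6.59, a fitted value that rests on 786O groups with at most 3 counts in a library and therefore gives no size. Without 786O shBMAL1 replicate 1, the only library of its group with a count, the value was -3.38 and the adjusted p was 0.917. Without WT8 shBMAL1 replicate 1 it was -9.69. The 786O contrast on which the set was selected is part of each of these differences.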

How the results depend on the processing

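With a fold over 1.5 required as well, 3 rather than 5 members passed in 786O. Other settings moved no members' count by over 1.5 times. With a replicate block 5, 9, 8 and 7 members were called in 786O, in WT8, between the lines and for the interaction. These are the same counts as without it. Same-numbered libraries did not deviate together (18 correlations from -0.0966 to 0.0872), so no pairing by number was seen. Whether the numbers mark cultures grown side by side cannot be told from this check. Over 156 gene results, 2574 of 2612 alternative values kept direction and side of the threshold, 25 lost a call, 10 gained one and 3 reversed. The reversals were of small or uncalled values, namely IL1RAP in WT8 with only the libraries compared (0.01), IL1B in 786O with libraries left out (range -3.88 to 0.01) and VHL in 786O with libraries left out (range -0.03 to 0.11). Calls were lost by CSF1 in WT8, IL1R1 in WT8, IL1B in the interaction and LIFR in the interaction (main adjusted p = 0.0685, and 0.131 without the low-count filter). Each of these calls was also lost in a fit with a single library left out. The cause was not tested. Leaving out single libraries left 8 or 9 members called in WT8, and 8 or 9 between the lines. Depth limits IL1A, IL1B outside WT8 shControl and LTB in WT8 shBMAL1, which held at most 5 counts in a library.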
